A study of Mus musculus with 109 samples.

Results

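The Myc, Max and Mxd network was followed in single cells of the postnatal mouse cerebellum through 8 of its genes: Mycn, Myc, Mycl, Max, Mxd3, Mxd4, Mxi1 and Mga. These are the rows with those symbols among the 15973 genes of the deposited table, in which Mycl is listed under its older symbol Mycl1. All 8 were listed, which requires reads in at least 3 cells.

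The network is built around MAX, a small basic helix-loop-helix leucine zipper protein that pairs with the other members and so allows them to bind the E-box letters CACGTG. MYC, MYCN and MYCL pair with MAX and activate genes of growth and ribosome production, whereas MXD3, MXD4 and MXI1 pair with MAX and recruit the SIN3 and histone deacetylase corepressor. MGA, a very large protein with its own MAX-binding domain, belongs to a Polycomb complex that represses germline and meiotic genes. In granule cell progenitors (GCPs) of the cerebellum, Mycn is known as a target of Sonic hedgehog signalling that keeps the cells dividing, and cells that leave the cycle start to make doublecortin (Dcx), a microtubule protein of young neurons.

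Cells of C57BL/6 pups at postnatal day 7 were enriched on a Percoll density gradient, isolated with the C1 Fluidigm system and given 1 Smart-seq library each, made from amplified cDNA of 1 cell. No cell was treated, and all cells carry the same label, granule precursor cells from brain; how many pups gave them and whether they were pooled is not given in the sources used here. By the number that ends each sample title the cells fall into 6 library groups (18 or 19 cells in each), which served as the replicates. The total count was 15071 to 8616017 reads per cell (median 3604792), and with 1 exception it was at least 1110182.

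Cells were separated by Mki67, which encodes the proliferation antigen KI67. Of the cells, 32 had at least 100 CPM, the count divided by the cell's total and scaled to 1000000, and are called Mki67-high, 75 had fewer than 10 CPM and are called Mki67-low, and 2 lay between. The lowest Mki67-high cell had 132 CPM, the 2 cells between had 21.3 and 66.4 CPM, and the highest Mki67-low cell had 9.27 CPM. Every library group held 3 to 8 Mki67-high and 10 to 15 Mki67-low cells. Dcx lay at a median of 239.6 CPM (0.221 to 3074) in Mki67-high and 1781 CPM (0.964 to 15827) in Mki67-low cells. In the second comparison the cells were separated at the median of Dcx, 935 CPM, into 55 Dcx-high and 54 Dcx-low cells. Both comparisons use the same cells and are therefore not independent of each other.

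The label was checked against markers. The summed level of 7 granule lineage markers (Zic1, Zic2, Neurod1, Pax6, Barhl1, Atoh1 and Meis1) reached 100 CPM in 106 cells. Markers of Purkinje cells, endothelium and microglia reached it in 1, 1 and 3 cells, and Csf1r, Cx3cr1, Cldn5 and Flt1 were never at 50 CPM. The summed level of 8 astroglial markers ran from 0.221 to 23420 CPM (median 337) in Mki67-high and from 0.0 to 50487 CPM (median 52.1) in Mki67-low cells. It reached 100 CPM in 59 cells. There were 5 cells with at least 5 of these 8 markers at 50 CPM or more, of which 3 were Mki67-high and 2 Mki67-low. Oligodendrocyte lineage markers reached a summed 100 CPM in 40 cells and those of inhibitory neurons in 13. Mki67-high cells had a median of 4967.5 genes with a count against 4193 in Mki67-low cells, and 2 Mki67-high cells, both among the 5 with astroglial markers, had more than 10000. The part of other cell types and of gene number in the values below was not tested, except where a value without those cells is given.

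The promoters are shown because the network is defined by a DNA word, the E-box CACGTG, and because E2F factors, which switch on genes for DNA replication, bind words such as GCGGGAA and GCGCGAA. Windows of 250 bases before to 50 bases after the start site (RefSeq, GRCm38.p6) were given for 7 of the 8 members, 9 windows in all, of which 3 belong to Mxi1. Both strands were searched for these letters, which were chosen after the windows had been read. An E-box lay in the windows of Max and Mxd4, against 7.15% of 32817 promoter windows of the same length. An E2F core lay in those of Mycn and Mxd3, against 6.00% of all windows. No window held both words, and those of Mycl, Mxi1 and Mga held neither. The matching stretches are printed 5′ to 3′ in the direction of transcription, with the matched letters in capitals. They lie at chr12:12941989-12942035 (minus strand), chr13:55329841-55329887 (minus strand), chr12:76962239-76962271 (minus strand) and chr5:34187904-34187949 (minus strand), and the match begins 179, 136, 3 and 219 bases before the start site.
Mycn: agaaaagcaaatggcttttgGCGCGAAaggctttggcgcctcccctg
Mxd3: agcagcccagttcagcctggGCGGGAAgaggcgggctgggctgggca
Max: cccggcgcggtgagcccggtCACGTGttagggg
Mxd4: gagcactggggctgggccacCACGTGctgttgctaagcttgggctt
A match is a description of the letters and does not show that a factor binds there.

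Mycn was the most abundant Myc gene in these cells and Myc itself was nearly absent. Over all cells of a library group and divided by the length of the merged exons, Mycn lay at 78.1 ± 20.5 CPM per kilobase (SD, n = 6 library groups), Mycl at 27.7 ± 13 and Myc at 1.76 ± 1.97. Among the partners, Mga lay at 23.7 ± 12.1, Mxd3 at 18.7 ± 28.5, Mxi1 at 18.6 ± 22.3, Mxd4 at 15.2 ± 10.7 and Max at 3.06 ± 3.55 CPM per kilobase. Mycn exceeded Mycl, the next in order, in 6 of 6 library groups (exact two-sided sign-flip test, p = 0.031, adjusted over the 7 neighbouring pairs 0.109), and Mxd4 exceeded Max in 6 of 6 (p = 0.031, adjusted 0.109, same exact test). A p of 0.031 is the smallest that 6 groups allow. The other neighbours in the order, from Mycl to Mxd4 and from Max to Myc, differed by less than the spread between groups (exact p from 0.375 to 1.0).

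**Figure D1:**
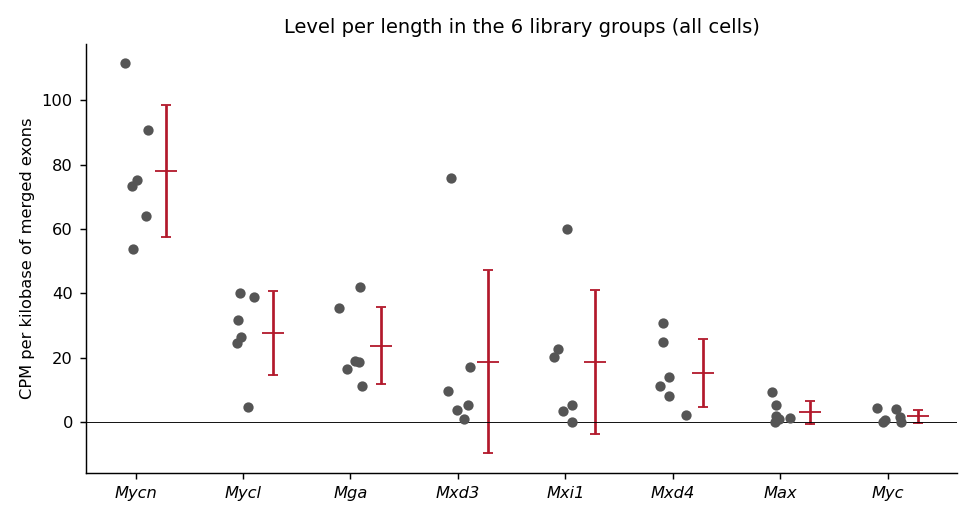
Level of each member over all cells of a library group, in CPM per kilobase of merged exons. Grey points are the 6 library groups and the red mark with its bar is their mean ± SD. Mycn stands highest in the order, and Mxd3 and Mxi1 spread widely, each with 1 library group far above the others.

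The members were found in very different numbers of cells. Mga had a count in 95 of all cells (87.2%, Wilson 95% interval 79.6 to 92.2) and Mycn in 93 (85.3%, 77.5 to 90.8). Mxd4 was found in 67 cells, Mycl in 63, Mxi1 in 58, Mxd3 in 36 and Max in 20. Myc had a count in 12 cells (11.01%, 6.41 to 18.3). Every cell held at least 1 member, the median cell held 4 of 8 and 3 cells held all 8. These 3 were the Mki67-high cells with astroglial markers, and they had counts in 13533, 12684 and 6420 genes. Here and below the intervals treat cells as independent draws and cover counting error only, whereas the cells share 6 library groups, so classes were compared over library groups and not by their intervals. A few cells held most of the signal of several members. Of the reads of Mxd3, 65.5% came from 1 cell, and of those of Max and Myc, 43.3% and 41.6%, against 7.77% for Mycn.

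Mxd3 was the 1 member whose summed levels in Mki67-high and Mki67-low cells did not overlap, while none of the members passed the threshold of the main test across all genes. For each library group, the counts of its Mki67-high cells and of its Mki67-low cells were added up, and the sums were compared with edgeR's quasi-likelihood test. At an adjusted p under 0.01, 2 of 9084 genes were called (0.022%), Tacc3 and Cdc20 of the mitotic apparatus, and none of the 8 members. Without library group 2, 4, 5 or 6 the number called was 0, and without group 1 or 3 it was 1. By DESeq2 on the same sums 376 of 10810 genes with an adjusted p were called, and Mxd3 was the 1 member among them. Max had no adjusted p in that fit. At an unadjusted p under 0.05, 666 genes passed (7.33%) and 1 of the 8 members did, Mxd3. The median log2 fold change of all genes was -0.18 with edgeR's TMM scaling and 0.093 with RLE size factors, so that log2 fold changes of this size lie within the choice of scaling. Nothing in the labels says that library groups came from separate animals, and p-values then measure only the spread between them, which may be technical.

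Mxd3 (chromosome 13, 55325168 to 55329823), which encodes the MAX partner that is known from cells in S phase, had 758, 208, 23.4, 13.1, 49.3 and 27.5 CPM in the Mki67-high sums of library groups 1 to 6. In the Mki67-low sums of the same groups it had 0.441, 1.17, 0.0, 0.0, 0.0502 and 0.0381 CPM, which rest on 19, 42, 0, 0, 2 and 2 reads. Each Mki67-high sum lay above each Mki67-low sum, and the ranges did not overlap. Ranges that did not overlap in this direction were seen for 57 of the 9084 genes (0.627%), and a higher sum in all 6 groups for 199 (2.19%), which among the 8 members was Mxd3 alone. Mxd3 passed the filter on low counts through its Mki67-high sums, and in the fit of Mki67-low cells alone it did not pass. Its Mki67-low sums lay near 0, which leaves the size of its fold change poorly determined. These comparisons describe Mxd3 and are not separate support for a difference. The mean was 179.8 ± 292 CPM (SD, n = 6) against 0.284 ± 0.468 CPM. edgeR gave a log2 fold change of 9.54 (standard error, SE, 2.12, unadjusted p = 0.000322, adjusted p = 0.195), the 15th smallest p of all genes, and 11 genes had a larger log2 fold change. With DESeq2 on the same sums it was 10.04 (adjusted p = 5.55e-09), and with library group added to the edgeR fit as a block 9.94 (edgeR adjusted p = 0.0656). Over all alternatives the adjusted p ran from 5.55e-09 to 0.522, and it was under the threshold in DESeq2 alone.

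A single cell of library group 1 with 10115 Mxd3 reads (1952 CPM) set the value of that group. Without this cell, the Mki67-high sum of group 1 was 0.612 CPM, from 5 reads in 3 cells, which is above the 0.441 CPM of its own Mki67-low sum but below the 1.17 CPM of group 2. Its log2 fold change was then 7.43 (edgeR adjusted p = 0.448), and without library group 1 it was 7.85 (edgeR adjusted p = 0.522). Without the 5 cells with astroglial markers it was 9.53 (edgeR adjusted p = 0.141).

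**Figure D2:**
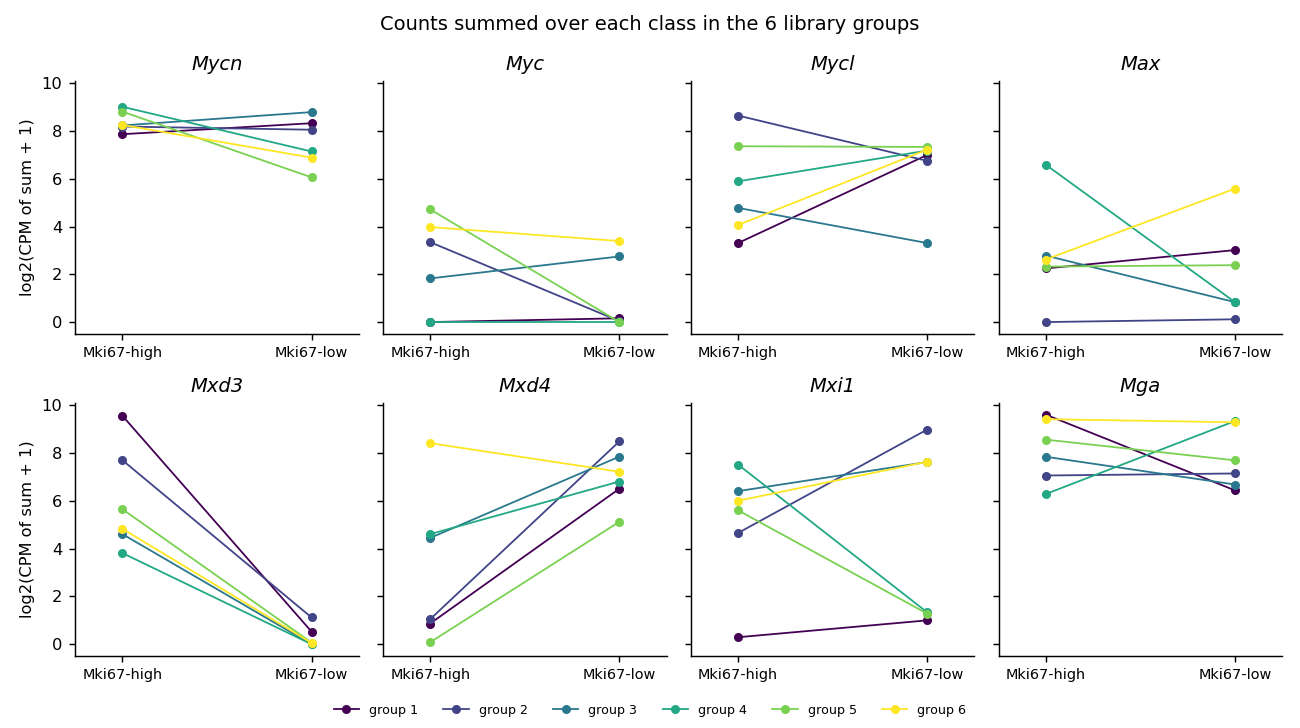
Counts of each member summed over the Mki67-high and the Mki67-low cells of a library group, as log2(CPM + 1). Each line joins the sums of 1 of the 6 library groups. All lines of Mxd3 run downwards from Mki67-high to Mki67-low, whereas each other member has lines in both directions.

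The numbers of cells with Mxd3 come from the same reads and cells as its sums and are not separate support for a difference. Mxd3 had a count in 18 of 32 Mki67-high cells (56.2%, Wilson 95% interval 39.3 to 71.8) and in 18 of 75 Mki67-low cells (24.0%, 15.8 to 34.8). This share favoured the Mki67-high cells in 6 of 6 groups, by a mean of 37.6 ± 21.6 percentage points (exact two-sided sign-flip test, p = 0.031, adjusted over all genes 0.428). Over all tested genes the median difference was 7.47 points, and 554 genes (6.1%) were higher in all 6 groups. No gene had an adjusted p under 0.428 in this exact test, since 6 groups cannot go below p = 0.031. When each cell was thinned to 1110182 counts, Mxd3 was found in 15 of 32 and 9 of 75 cells, a difference of 38.3 ± 18.99 points that was positive in 6 of 6 groups. Of all genes 6.57% then had a higher share in all 6 groups, and of the members Mxd3 and Mxi1 did.

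Most Mki67-low cells with Mxd3 held very few reads of it. Their median was 1.5 reads against 65 in the Mki67-high cells with a count. At least 5 reads were held by 14 of 32 Mki67-high cells (43.8%, 28.2 to 60.7) and by 1 of 75 Mki67-low cells (1.33%, 0.236 to 7.17). This share, too, was higher in Mki67-high cells in 6 of 6 groups, by 43.5 ± 13.9 points. At 5 reads 8.05% of all genes showed that direction in all 6 groups, and of the members Mxd3 and Mycl did (exact two-sided sign-flip test, p = 0.031 for each, adjusted over all genes 0.352). The 15 cells with at least 5 reads came from all 6 library groups. They held 4.86 to 1952 CPM of Mxd3 (median 20.3), 12 of them were Dcx-low and 3 Dcx-high, and 3 carried astroglial markers. Their median Mki67 was 824 CPM, and the 18 Mki67-high cells without 5 reads of Mxd3 had a median of 575 CPM. The 1 Mki67-low cell among them, of library group 2, had 37 reads of Mxd3 (15.9 CPM), 0.861 CPM of Mki67, 204 CPM of Pcna, which encodes the clamp of DNA polymerase, and 7.32 CPM of Dcx.

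Mxd3 overlaps Prelid1, which is read from the other strand and encodes a mitochondrial protein. Prelid1 had 29.04 ± 30.9 CPM in the Mki67-high and 76.3 ± 69.8 CPM in the Mki67-low sums (SD, n = 6), so that its means lay in the opposite order to those of Mxd3. The strand setting of the counting is not given in the sources used here. Reads from the overlap of both genes could not be told apart in these counts.

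**Figure D3:**
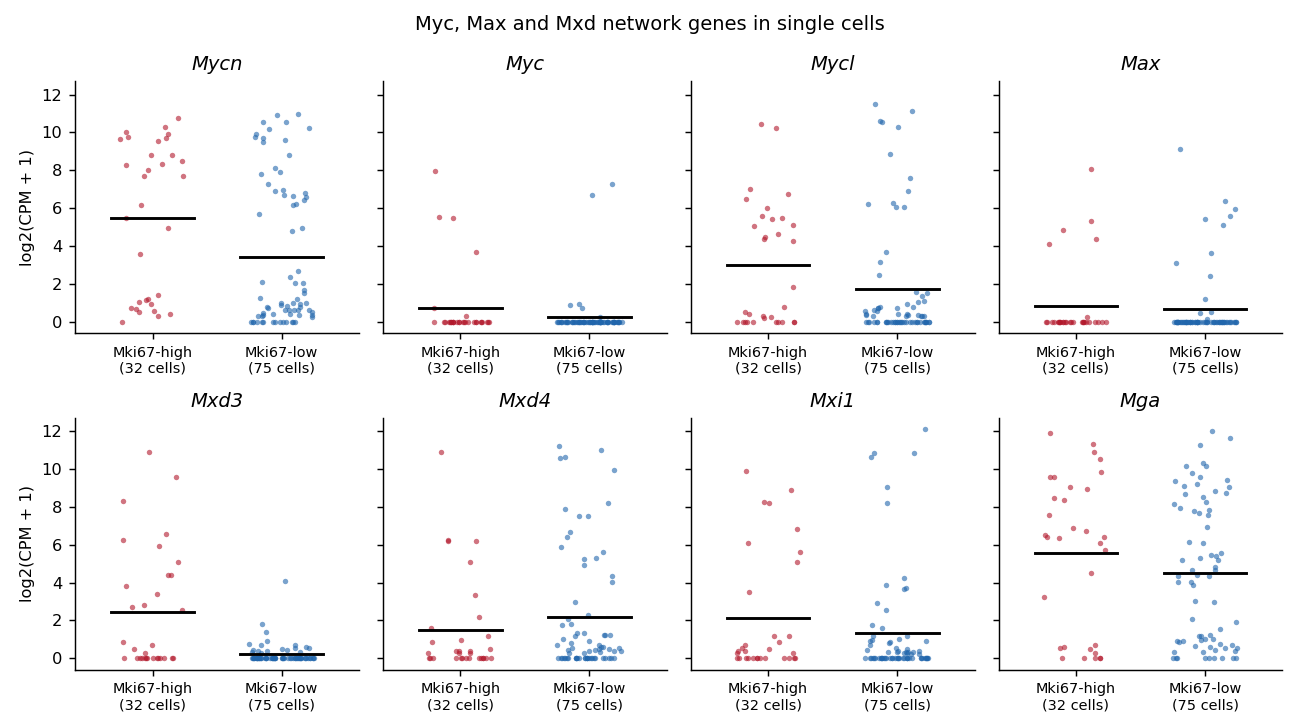
Level of each member in single cells, as log2(CPM + 1), in 32 Mki67-high (red) and 75 Mki67-low cells (blue). Each point is a cell and the black line is the mean of the points. Mxd3 reaches its high levels in Mki67-high cells, while Mycn, Mycl, Mxd4, Mxi1 and Mga have cells of high level in both classes.

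Among the activators, Mycn (chromosome 12, 12936093 to 12941914) had 232, 291, 299.9, 517, 449 and 305 CPM in the Mki67-high sums of library groups 1 to 6, and 320.2, 265, 442, 140.4, 65.7 and 117 CPM in the Mki67-low sums. The Mki67-high sum was the higher one in groups 2, 4, 5 and 6, and the ranges overlapped. With means of 349 ± 109.04 against 225 ± 143 CPM (SD, n = 6), the fitted log2 fold change was 0.54 (SE 0.64, edgeR adjusted p = 0.886), and it ran from 0.297 to 1.08 with 1 library group left out. Mycn was found in 31 of 32 Mki67-high (96.9%, 84.3 to 99.4) and 61 of 75 Mki67-low cells (81.3%, 71.1 to 88.5), a share that was higher in 5 and lower in 0 of 6 groups (exact two-sided sign-flip test, p = 0.0625, adjusted 0.428). At least 5 reads were held by 21 and 35 cells. The median over cells was 138.1 CPM in Mki67-high and 0.988 CPM in Mki67-low cells, although the highest single cells reached 1725 and 1995 CPM. Mycn was thus found at a high level in part of the cells of both classes.

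Mycl (chromosome 4, 122995652 to 123002485), a Myc gene with roles outside the cell cycle as well, differed in how its levels and its numbers of cells compared. Its Mki67-high sums ran from 8.91 to 400.1 CPM and its Mki67-low sums from 8.92 to 160.2 CPM, and 3 groups were higher and 3 lower. Its log2 fold change was -0.09 (SE 1.08, edgeR adjusted p = 0.994), or 0.085 relative to the median of all genes, and it was positive with RLE size factors (0.34). Without group 2 it was -1.06. A count was found in 22 of 32 and 40 of 75 cells, a share that was higher in 4 and lower in 1 of 6 groups (19.7 ± 33.8 points, exact p = 0.25). At least 5 reads were held by 16 and 18 cells. This share was higher in Mki67-high cells in 6 of 6 groups, by 31.3 ± 22.5 points, against a median of 9.08 points over all genes. Of all genes 8.05% showed that direction in all 6 groups. For Mycl the exact two-sided sign-flip test gave p = 0.031 (adjusted over all genes 0.352).

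Myc (chromosome 15, 61985391 to 61990374) had 6 cells with a count in each class, and its sums ran from 0.0 to 25.3 CPM in Mki67-high and from 0.0 to 9.51 CPM in Mki67-low cells. Here the log2 fold change was 1.54 (SE 1.97, edgeR adjusted p = 0.895). It became 0.47 without group 5, and without group 3, without group 6 or without the cells with astroglial markers Myc did not pass the filter on low counts. Of the 6 cells with at least 5 reads of Myc, 4 were among the 5 cells with astroglial markers and 2 among the other 104, and 71.2% of all Myc reads came from the former. These 5 cells also held more genes (median 6420 against 4309.5) and a median of 356 CPM of Mycn, against 1.53 CPM in the other cells.

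Max (chromosome 12, 76937269 to 76962201), which overlaps Gm47218 on the same strand, was found in 6 of 32 and 13 of 75 cells. Its sums lay under 7.08 CPM except for 95.2 CPM in the Mki67-high cells of group 4 and 47.1 and 7.08 CPM in the Mki67-low cells of groups 6 and 1. Its log2 fold change of 1.19 (SE 1.78, edgeR adjusted p = 0.913) became -1.62 without library group 4 and 3.23 without group 6.

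Of the other repressors, Mxd4 (chromosome 5, 34173883 to 34187720), known from cells that leave the cycle, had 0.824, 1.07, 20.9, 23.4, 0.0589 and 342 CPM in the Mki67-high sums of library groups 1 to 6. In the Mki67-low sums it had 90.2, 359, 230.4, 111, 33.9 and 148 CPM. It was lower in Mki67-high cells in 5 of 6 groups, all but group 6. Mxd4 had a fitted log2 fold change of -1.86 (SE 1.44, edgeR adjusted p = 0.806), which became -4.25 without group 6 and -1.11 without group 2. With library group as a block it was -5.06 (edgeR adjusted p = 0.652). A count was found in 18 of 32 (56.2%, 39.3 to 71.8) and 48 of 75 cells (64.0%, 52.7 to 73.9), and at least 5 reads in 7 and 24. Mxd4 overlaps Gm42846 on the other strand.

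Mxi1 (chromosome 19, 53310518 to 53375810), which encodes the MAX partner also called MXD2, had 67.1 ± 64.0 CPM (0.225 to 183) in Mki67-high and 151.1 ± 199 CPM (0.998 to 507) in Mki67-low sums (SD, n = 6). It was lower in 4 of 6 groups, and the fitted log2 fold change was -1.28 (SE 1.49, edgeR adjusted p = 0.885), which became -0.12 without group 2 and -2.31 without group 4. A count was found in 19 of 32 and 37 of 75 cells, so that the share of cells was the higher in Mki67-high cells while the summed level was the lower. In thinned cells the share was higher in 6 of 6 groups, by 22.1 ± 13.04 points (exact two-sided sign-flip test, p = 0.031, adjusted over all genes 0.393), against a median of 8.10 points over all genes. A higher share in all 6 groups was then seen for 6.57% of all genes. AC133451.2 and Gm10197 overlap Mxi1 on the other strand.

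Mga (chromosome 2, 119897228 to 119969581) had sums of 77.2 to 782 CPM in Mki67-high and 85.98 to 649 CPM in Mki67-low cells and was higher in 4 of 6 groups. The log2 fold change of 0.32 (SE 0.75, edgeR adjusted p = 0.950) became -0.41 without library group 1. It was found in 27 of 32 (84.4%, 68.2 to 93.1) and 66 of 75 cells (88.0%, 78.7 to 93.6).

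**Figure D4:**
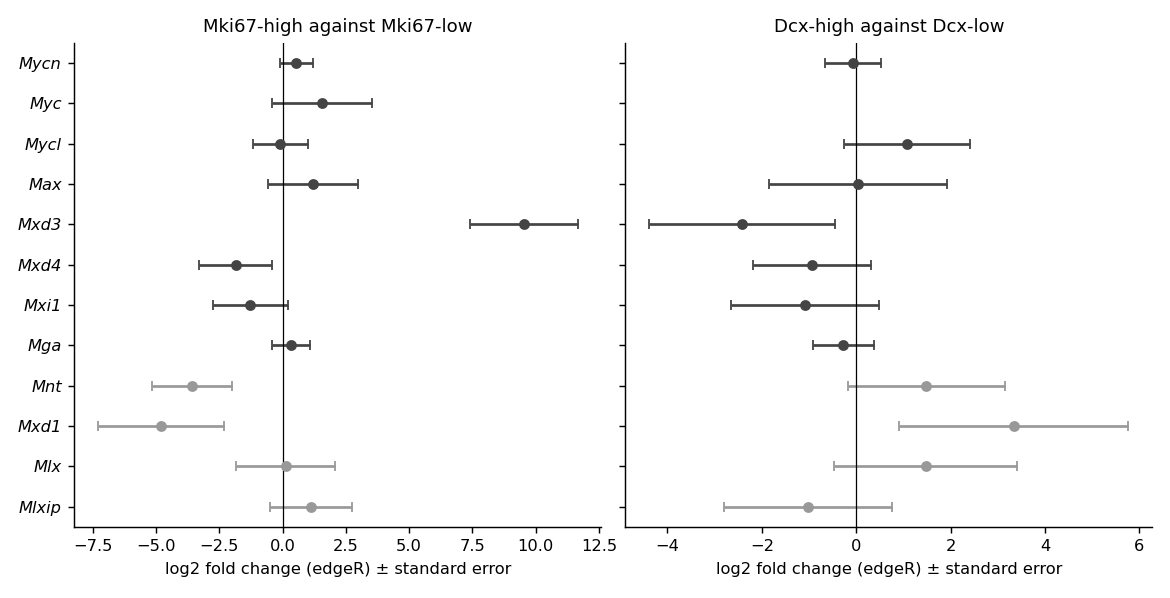
Log2 fold changes ± standard error from edgeR for the 8 members (dark) and 4 further genes of the extended network (light), between Mki67-high and Mki67-low cells on the left and between Dcx-high and Dcx-low cells on the right. Mxd3 lies at 9.54 on the left, while most of the other bars touch or cross 0 in both panels.

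Between Dcx-high and Dcx-low cells no gene was called. Of 9129 genes, 0 had an adjusted p under 0.01 in edgeR (0.0%), 418 had an unadjusted p under 0.05 (4.58%), and the lowest adjusted p was 0.973. DESeq2 on the sums called 105 of 12586 genes with an adjusted p. Of the 7 members that passed the filter on low counts, which Myc did not, 0 had an unadjusted p under 0.05. Mxd3 had 12.4 ± 23.3 CPM (0.0 to 58.9) in Dcx-high and 61.7 ± 118 CPM (2.86 to 302) in Dcx-low sums (SD, n = 6), and was lower in Dcx-high cells in 4 of 6 groups. Its log2 fold change of -2.42 (SE 1.96, edgeR adjusted p = 0.987) became 0.16 without library group 1. Mycn had 237 ± 115 CPM in Dcx-high and 265 ± 94.2 CPM in Dcx-low sums, where the fitted log2 fold change was -0.07 (SE 0.60, edgeR adjusted p = 0.999). The log2 fold changes of the other members were 1.08 for Mycl, 0.041 for Max, -0.94 for Mxd4, -1.09 for Mxi1 and -0.27 for Mga. Several changed in size or direction when 1 library group was left out. Mycl was at 0.044 without group 5 and 2.02 without group 4, Max at -2.22 without group 6, Mxd4 at 0.84 without group 2 and Mxi1 at -3.36 without group 2.

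Crossing both separations gave 25 Mki67-high, Dcx-low cells, 7 Mki67-high, Dcx-high cells, 29 Mki67-low, Dcx-low cells and 46 Mki67-low, Dcx-high cells. At least 5 reads of Mxd3 were held by 11, 3, 1 and 0 of these cells in this order, so that among Mki67-high cells the share was 44.0% with low and 42.9% with high Dcx. The 0 of 46 Mki67-low, Dcx-high cells still included 11 cells with 1 to 4 reads. At least 5 reads of Mycn were held by 16, 5, 15 and 20 cells, which is 64.0, 71.4, 51.7 and 43.5%. For Mycl the numbers were 10, 6, 6 and 12, which puts the highest share, 85.7%, in the 7 Mki67-high, Dcx-high cells, a class found in 4 of the 6 library groups. For Mga they were 17, 5, 14 and 35, or 68.0, 71.4, 48.3 and 76.1%. These shares are given as a description, without a test.

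**Figure D5:**
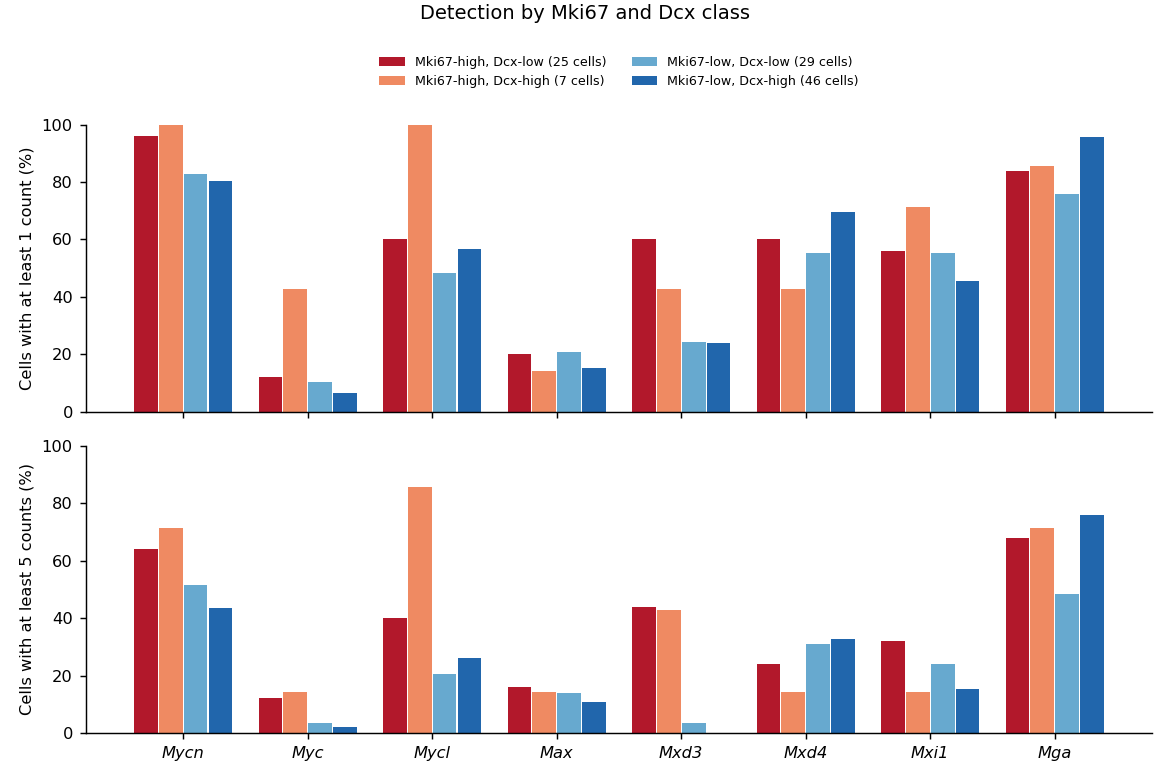
Percentage of cells with at least 1 count (top) and at least 5 counts (bottom) of each member in the 4 classes made from Mki67 and Dcx. The bars for Mxd3 at 5 counts stand near 44% in both Mki67-high classes and at 3.45 and 0.0% in the Mki67-low classes.

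Across all cells the members varied largely apart from each other. Spearman correlations of CPM over the 28 pairs of members ran from -0.13 to 0.31, with a median of 0.089. The highest were those of Mycn with Myc (0.31, 12 cells with both) and with Mxd3 (0.30, 34 cells with both). Mxd3 correlated with Mki67 at 0.34, which was 0.15 within Mki67-high and 0.030 within Mki67-low cells, and with the number of genes found in a cell at 0.37. Cells share library groups and depth, and these values are descriptions over cells.

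The genes whose levels were most like those of each member were sought among 8642 genes with a count in at least 20 cells. For Mxd3 they were Tgif1 (0.53), Plxnb2 (0.52) and Cenpe (0.52), which encode a homeobox repressor, a semaphorin receptor and a kinesin of the kinetochore. For Mycn they were Cenpf (0.43), another kinetochore gene, Fundc2 (0.39) and Kif22 (0.38), a kinesin of the mitotic spindle. For Mga they were Zfp644 (0.42), Meaf6 (0.40) and Gpx7 (0.38), and for Mxd4 they included Yaf2 (0.38) and Cotl1 (0.38). Those of Mycl were Srp14 (0.43), Zbtb8os (0.40) and Gm14303 (0.40), those of Mxi1 Ubfd1 (0.38), Gm7809 (0.37) and Aldh3a2 (0.37), and those of Max Hax1 (0.44), Cops7a (0.41) and Them4 (0.41). Myc was found in too few cells for this search.

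The other proteins of the network pair with MAX or with its relative MLX. Of 5 such genes 4 could be tested and 0 were called. Mnt, a widely made MAX-binding repressor, had 5.01 ± 5.32 CPM in Mki67-high and 49.8 ± 56.8 CPM in Mki67-low sums (SD, n = 6) and was lower in 5 of 6 groups, and its fitted log2 fold change was -3.58 (SE 1.59, unadjusted p = 0.0386, edgeR adjusted p = 0.670). Mxd1 had 1.498 ± 2.35 against 27.2 ± 54.7 CPM, for which edgeR fitted a log2 fold change of -4.80 (SE 2.48, edgeR adjusted p = 0.702), with counts in 7 of 32 and 12 of 75 cells. The values of Mlx and Mlxip were 0.13 and 1.11. Mlxipl was found in 7 cells with at most 4 reads and was not tested. In the Mki67 comparison the values of Mxd1, Mnt, Mxd4 and Mxi1 were negative and that of Mxd3 positive, and edgeR called none of them. Of all genes 45.2% had a positive value there. In the Dcx comparison Mnt (1.48) and Mxd1 (3.34) were positive, whereas Mxd3, Mxd4 and Mxi1 were negative. Again edgeR called none, and 50.6% of all genes were positive.

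Lists of genes that act with the network were described by their counts, and 0 genes of any list were called in either comparison. Of 38 genes known as targets of MYC, 25 had a positive log2 fold change between Mki67-high and Mki67-low cells (median 0.54). Over all genes 45.2% were positive, with the median of -0.18 given above. The highest were Shmt1 of folate metabolism (5.95), Bop1 of ribosome assembly (3.84) and Fbl (1.92), and the lowest Srm (-2.69), Nop16 (-2.35) and Ppat (-2.33). Bop1 was higher in 6 of 6 groups, at 61.6 ± 34.4 against 4.20 ± 9.07 CPM (edgeR adjusted p = 0.677), a pattern that 2.19% of all genes showed. In the Dcx comparison 11 of 37 targets had a positive value (median -0.36), against 50.6% of all genes (median 0.020).

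For the lists that follow, 45.2% of all genes had a positive value in the Mki67 comparison. A higher sum in all 6 groups was seen for 2.19% of all genes. The corepressor used by the Mxd proteins had positive values in 8 of 9 tested genes (median 0.76). The highest were Sap18 (1.94), Rbbp7 (1.73, higher in 6 of 6 groups) and Rbbp4 (0.84), and the lowest Sin3b (-0.76), Hdac2 (0.092) and Ncor1 (0.19). Of 7 tested partners of MGA in its Polycomb complex 4 had positive values (median 0.92), from L3mbtl2 (2.92), Tfdp1 (2.48) and Cbx3 (0.92) to Cbx1 (-0.035), Yaf2 (-1.89) and Pcgf6 (-4.32). Coactivators of MYC ran from Cdk9 (2.32), Trrap (1.51) and Ruvbl2 (0.83) to Ep400 (-1.77), Zbtb17 (-1.92) and Wdr5 (-2.54), with 5 of 11 positive (median -0.18). Genes for the turnover of MYC proteins had 4 of 11 positive values (median -0.47). Aurka, a mitotic kinase that shields MYCN from degradation, had the highest (4.76, edgeR adjusted p = 0.688, higher in 6 of 6 groups), followed by Skp2 (1.06) and Fbxw7 (1.02). The lowest were Usp28 (-2.69), Usp36 (-2.66) and Trpc4ap (-1.89), and Trpc4ap was lower in 6 of 6 groups, as were 3.2% of all genes.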

How the data were processed

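Smart-seq libraries of single cells were analysed. The deposited values are raw read counts per gene and cell, without normalization, for which the submitters' processing notes name mm10, STAR 2.4.1d and HTSeq 0.6.1. The annotation and the strand setting are not given in the sources used here. The paper speaks of independent batches, equal in number to the 6 library groups of the labels, without saying that the library groups are these batches. The paper's methods name ICR pups in general, whereas the labels of these cells give C57BL/6.

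CPM are counts divided by the total of a cell or sum and scaled to 1000000. Counts were summed per class and library group, filtered with filterByExpr, scaled by TMM and compared with the quasi-likelihood test of edgeR 4.0.16 in R 4.3.3, with Benjamini-Hochberg adjustment over all genes tested. Genes with an adjusted p under 0.01, the study's threshold, were called. Mki67 or Dcx was left out of its own comparison. DESeq2 1.42.0 was an alternative. Shares of cells were compared with exact sign-flip tests over the 6 groups. Alternatives were other scalings, filters and thresholds, thinned counts, a library group block, and fits without each group, without the 5 cells with astroglial markers or without 3 cells of unusual depth (under 100000 counts or over 10000 genes). The fit without the cell with most Mxd3 reads was added after the values were seen. The scripts were tested on simulated data with less variation between sums than was estimated here. That test does not show which changes could be found in these data.

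The members, gene lists and comparisons were chosen with earlier results of these data known. The text names the members, 5 genes of the extended network, up to 3 genes with the highest and 3 with the lowest log2 fold change of each list, the 3 genes most correlated with each member (1 of them is not reported here), and landmark genes. Tacc3 and Cdc20, Prelid1 and the other overlapping genes were named after their values were seen. Positions and exon lengths come from the GENCODE annotation of GRCm38, and promoters from RefSeq.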

Additional observations from a re-analysis of the deposited data

Results flagged for a closer look

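The sums of each member in each class were searched for a library group that stood apart from the other 5 by Dixon's criterion. This is the gap to the next group as a share of the range. Chance alone meets it in about 1 in 20 sets of normally distributed values. Several of these sums rest on a few cells, so that rate does not hold here and gives no measure of excess. Of 16 sets, 5 met the criterion. Mxd3 had 758 CPM in the Mki67-high cells of group 1, where the next group had 208 CPM, and the gap was 0.738 of the range. Max had 95.2 CPM in the Mki67-high cells of group 4 (next 5.89 CPM) and 47.1 CPM in the Mki67-low cells of group 6 (next 7.08 CPM). Mxd4 had 342 CPM in the Mki67-high cells of group 6, where the next group had 23.4 CPM. Mycl had 8.92 CPM in the Mki67-low cells of group 3, and the next lowest group had 107 CPM.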

How the results depend on the processing

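Of 227 alternative log2 fold changes of members, 204 kept their direction and 23 did not, and 1, Mxd3 in DESeq2 (10.04), passed the threshold. Of 80 alternative differences in share of cells, 73 kept their direction, and 5 members (Mycn, Myc, Mycl, Mxd3 and Mxi1) were positive in all of theirs. The median over all genes was positive too, at 7.47 points in the main setting, and Myc lay close to it at 7.99 points. Genes called between Mki67-high and Mki67-low cells numbered 2, against 6 with RLE size factors, 6 at an adjusted p under 0.05, 376 in DESeq2 (267 higher), 0 against cells without any Mki67 count, 1 without astroglial cells, 1 without cells of unusual depth, 1 without the cell richest in Mxd3, and 0 to 1 without each library group. Between Dcx classes DESeq2 called 105 genes and all other fits 0. The library group block left 0 genes called in the Mki67 comparison, and with it Mxd3 was at 9.94 (edgeR adjusted p = 0.0656), Mxd4 at -5.06 and, between Dcx classes, Mxi1 at -3.60. Sums of the same group correlated at 0.043 to 0.125 (Mki67) and 0.037 to 0.102 (Dcx), not all above 0.1. In both comparisons 5 of 6 high sums matched their own group best, a hint of pairing from the data. As the labels do not say what a group shares, the fits without the block were kept. They leave this pairing out, whereas the sign-flip tests compare the classes within each group. Sums of at least 2 cells were the same sums and are not counted. The cause of these shifts was not tested.

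Between Mki67 classes, the log2 fold change of Mycl was 0.34 with RLE, 0.29 in DESeq2, 0.026 without cells of unusual depth, and 0.19, 0.15 and 0.19 without group 1, 4 or 6 (range over the groups -1.06 to 0.19). That of Max was -0.028 with the block and -1.62 without group 4 (up to 3.23 without group 6), and that of Mga -0.41 without group 1 (up to 0.99). Between Dcx classes, Mycn was at 0.0013 without a filter, 0.089 in Mki67-low cells, and 0.059, 0.049 and 0.11 without group 2, 4 or 5 (from -0.32). With Dcx separated at 100 CPM, Mycl was at -0.74, Max at -0.46 and Mxd4 at 1.02. With the block, Max was at -2.94 and Mxd4 at 0.85. Max was at -0.13 and -2.22 without group 1 or 6 (up to 1.67), Mxd3 at 0.16 without group 1 (from -4.96) and Mxd4 at 0.84 without group 2 (from -1.50). The difference in share of cells between Mki67 classes was -3.52 points for Max without astroglial cells, -0.72 without cells of unusual depth and -0.36 without group 1 (up to 9.33), for Mxd4 2.44 and 3.10 without group 3 or 4 (from -10.3), and for Mga 3.26 at 5 counts and 2.21 without group 3 (from -5.29). That of Mxd3 lay between 31.8 and 43.5 points, that of Mycl between 11.3 and 31.3, that of Mycn between 12.4 and 21.7 and that of Mxi1 between 7.59 and 22.1.

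In the Mki67 comparison edgeR estimated the variation between sums beyond counting error at 172%, and part of it may be technical. Differences within the standard errors given were not detectable here. Larger fitted values also went uncalled in edgeR, such as that of Mxd3 (9.54, SE 2.12, edgeR adjusted p = 0.195). Its size is poorly determined, as its Mki67-low sums lay near 0.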
